A study of Mus musculus with 24 samples.

Results

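Cholesterol synthesis genes and other genes tied to the sterol-sensing transcription factor SREBP2 were followed in mouse liver across genotype, age and diet. The members were 27 named genes, taken by symbol from the 22429 genes of the deposited liver mRNA count table, and all 27 were in it. By role they are 4 regulators (Srebf2, Scap, Insig1 and Insig2) and 8 enzymes leading from acetyl-CoA through mevalonate to isoprenoids (Acat2, Hmgcs1, Mvk, Pmvk, Mvd, Idi1, Fdps and Ggps1). A further 11 enzymes make squalene and turn it into cholesterol (Fdft1, Sqle, Lss, Cyp51, Tm7sf2, Msmo1, Nsdhl, Hsd17b7, Ebp, Sc5d and Dhcr7). The other 4 are genes of sterol transport or uptake (Stard4, Tmem97, Mylip and Npc1l1). A total of 26 members had enough counts to be tested among 12690 genes. Npc1l1, a sterol uptake transporter best known from the intestine, did not, and its level ranged from 0 to 0.285 CPM, a gene's counts relative to the TMM-scaled total of its library.

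SREBP2, encoded by Srebf2, is made as a membrane protein of the endoplasmic reticulum. When membrane cholesterol is low, the escort protein SCAP carries it to the Golgi apparatus, where it is cut and its released part enters the nucleus and switches on nearly every enzyme of cholesterol synthesis. INSIG1 and INSIG2 hold SCAP back when sterols are plentiful, and liver is a main site of cholesterol synthesis, storage and export as lipoproteins and bile acids. Insig2 and Mylip, a ubiquitin ligase that removes lipoprotein receptors, are members that oppose sterol gain, and neither is a typical SREBP2 target.

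The 24 liver libraries came from male F1 hybrids of C57BL6J and FVBN, housed singly on the same synthetic pellets, and formed 6 groups of 4. The Ercc1 +/+ (wild-type) groups were 16 weeks old on free feeding, 16 weeks old on 30% dietary restriction, and 104 weeks old on free feeding. Ercc1 d/- mice, a progeroid mutant with a truncated and a null allele of a DNA repair gene in every cell, were 7 or 16 weeks old on free feeding, or 16 weeks old on the same 30% restriction. Per the labels, freely fed mutants ate 2.3 g a day and wild-type mice 3.0 g, restriction began at 7 weeks of age and stood at 30% from 9 weeks, at 1.6 and 2.1 g a day, and food came just before dark except on the day of collection. Genotype and intake therefore differ together between the freely fed groups, no wild type of 7 weeks or mutant of 104 weeks was analysed here, and whole-liver RNA holds every cell type of the organ.

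Total counts ran from 13269792 to 20624803 per library. Transcripts of mitochondrial DNA took 12.5 to 16.9% of counts in the restricted libraries of both genotypes and 8.60 to 11.8% in the freely fed ones. Albumin took 8.14 to 12.0% and 3.77 to 7.72%, and all 9 hepatocyte markers were detected in every group. Ercc1 stood at 2.06 to 4.46 CPM in the 12 wild-type libraries and at 1.08 to 2.33 CPM in the 12 mutant ones, so that these ranges overlapped, and counts per gene do not show which allele the reads came from. Within their groups, some libraries were at one end for most of the members themselves. Library 1 of the 104-week wild type was the highest of its group for 22 of the 26 tested members, library 3 of the restricted mutant for 22 and library 3 of the restricted wild type for 18. Library 4 of the freely fed wild type of 16 weeks was the lowest of its group for 17, with a mean log2 level over the members of 4.45 against 4.66 to 4.76. Library 2 of the restricted mutant was the lowest of its group for 15, and library 1 of the freely fed mutant of 16 weeks for 14.

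Promoter sequence was examined because the members share a known regulator. The RefSeq table of promoter windows (GRCm38.p6, 250 bases before to 50 after a start) held 29 windows for 23 members, and none for Fdps, Fdft1, Sqle or Stard4 was used. The letters CCAAT, the core of the box bound by the SREBP partner NF-Y, were present on either strand in 21 of 29 member windows (72.4%), against 37.4% of all 32851 windows and 38.0% of the 12763 windows of tested genes. The GC box GGGCGG, which SP1 binds, was present in 79.3% of member windows, against 35.7% of all windows and 59.8% of those of tested genes. The sterol-element-like letters TCACNCCAC were present in 1 member window, that of Hmgcs1 (3.45%, against 1.24% of all), and CACCCCAC, which can overlap them, in 2 (6.90%, against 2.87%), those of Acat2 and Hmgcs1. A match is a description of letters and not of binding. Shown are the bases just upstream of the first annotated exon for 5 members that rose in the freely fed mutant. For Hmgcs1, whose window holds the sterol-element-like match, the stretch lies just upstream of the RefSeq start. Each is given 5′ to 3′ on the strand of its gene, and capitals mark CCAAT or its reverse complement and, in Hmgcs1, also the match to TCACNCCAC.
Hmgcs1: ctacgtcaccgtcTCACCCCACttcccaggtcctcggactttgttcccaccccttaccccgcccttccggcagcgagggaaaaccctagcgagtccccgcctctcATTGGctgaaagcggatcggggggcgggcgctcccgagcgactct
Mvk: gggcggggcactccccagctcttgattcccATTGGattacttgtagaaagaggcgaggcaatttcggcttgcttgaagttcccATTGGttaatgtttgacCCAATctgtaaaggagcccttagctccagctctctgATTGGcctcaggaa
Lss: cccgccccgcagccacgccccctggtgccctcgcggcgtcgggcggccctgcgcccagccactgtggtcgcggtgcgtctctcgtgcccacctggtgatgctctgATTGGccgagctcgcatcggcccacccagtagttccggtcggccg
Cyp51: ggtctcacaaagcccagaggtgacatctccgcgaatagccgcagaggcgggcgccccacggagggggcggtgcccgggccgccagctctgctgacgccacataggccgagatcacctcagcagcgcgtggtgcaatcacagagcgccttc
Hsd17b7: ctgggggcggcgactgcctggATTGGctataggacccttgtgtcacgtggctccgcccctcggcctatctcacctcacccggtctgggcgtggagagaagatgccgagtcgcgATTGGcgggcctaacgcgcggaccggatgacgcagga
Tmem97: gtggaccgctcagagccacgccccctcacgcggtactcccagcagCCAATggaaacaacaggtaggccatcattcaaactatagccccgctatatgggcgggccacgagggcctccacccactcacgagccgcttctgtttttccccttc
These stretches lie at chr13:119690201-119690350 (plus strand, Hmgcs1), chr5:114444119-114444268 (plus strand, Mvk), chr10:76531438-76531587 (plus strand, Lss), chr5:4104747-4104896 (minus strand, Cyp51), chr1:169969242-169969391 (minus strand, Hsd17b7) and chr11:78550778-78550927 (minus strand, Tmem97). The Mvk stretch holds 4 such boxes, that of Hsd17b7 holds 2, and those of Hmgcs1, Lss and Tmem97 hold 1 each. The Cyp51 stretch holds none, its single match lying nearer to the RefSeq start, at position -29. Idi1 and Msmo1 were also called higher and are not shown. The Idi1 stretch holds none, its matches lying at positions -45 and -14, and the Msmo1 window holds 3. Windows of members not called in that comparison held such matches too, 3 each for Ggps1 and Mylip and 2 for Ebp.

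In freely fed mice of 16 weeks, the mutant was compared with the wild type. Most calls were among the 11 enzymes from squalene synthase onward, with 6 higher, against 2 of the 8 earlier enzymes. The median log2 fold changes of these roles lay closer together, at 0.99 and 0.85. Squalene epoxidase (Sqle), methylsterol monooxygenase (Msmo1), isopentenyl diphosphate isomerase (Idi1), lanosterol demethylase (Cyp51) and squalene synthase (Fdft1) were among 9 members called higher, at log2 fold changes between 0.83 and 4.11. Insig2, which restrains SREBP2, was the 1 member called lower. Of all tested genes, 5.10% were called higher and 4.85% lower in this comparison. The median log2 fold change of the 26 members was 0.74, against 0.02 over all tested genes, and 20 of the 26 were above 0. In bulk liver, fewer cells of a type and less RNA per cell cannot be told apart.

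Sqle (chromosome 15, 59315077 to 59331192 on GRCm38), which commits squalene to sterol synthesis, stood at 73.3, 60.9, 59.3 and 52.4 CPM in the 4 mutant libraries and at 3.22, 3.46, 3.59 and 3.98 CPM in the 4 wild-type ones. The lowest mutant library was far above every wild-type library, and the values within each group were close together. Group means were 61.5 ± 8.68 and 3.56 ± 0.315 CPM (SD, n = 4), a log2 fold change of 4.11 ± 0.54 (SE, edgeR adjusted p = 3.15e-05).

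Msmo1 (chromosome 8, 64718139 to 64733792), which removes methyl groups from sterol intermediates, stood at 85.7, 98.7, 80.4 and 91.8 CPM in the mutant and at 17.7, 16.7, 19.8 and 15.2 CPM in the wild type. The groups did not overlap, and the log2 fold change was 2.36 ± 0.44 (edgeR adjusted p = 0.00124). Tmem97 (chromosome 11, 78541817 to 78550777), a sterol-regulated membrane protein that binds the cholesterol transporter NPC1, stood at 36.0, 42.6, 38.1 and 41.3 CPM in the mutant and at 25.8, 15.9, 20.8 and 17.3 CPM in the wild type. Its groups did not overlap either, with a log2 fold change of 0.98 ± 0.17 (edgeR adjusted p = 3.39e-04).

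Insig2 (chromosome 1, 121304353 to 121332589) moved the other way, at 51.8, 72.9, 52.4 and 64.4 CPM in the mutant and 89.2, 153, 124 and 215 CPM in the wild type. Every wild-type library was above every mutant one, although wild-type values spanned a wide range. The log2 fold change was -1.27 ± 0.24 (edgeR adjusted p = 0.00105). Insig2 has more than one promoter, and counts per gene do not separate its transcripts.

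**Figure D1:**
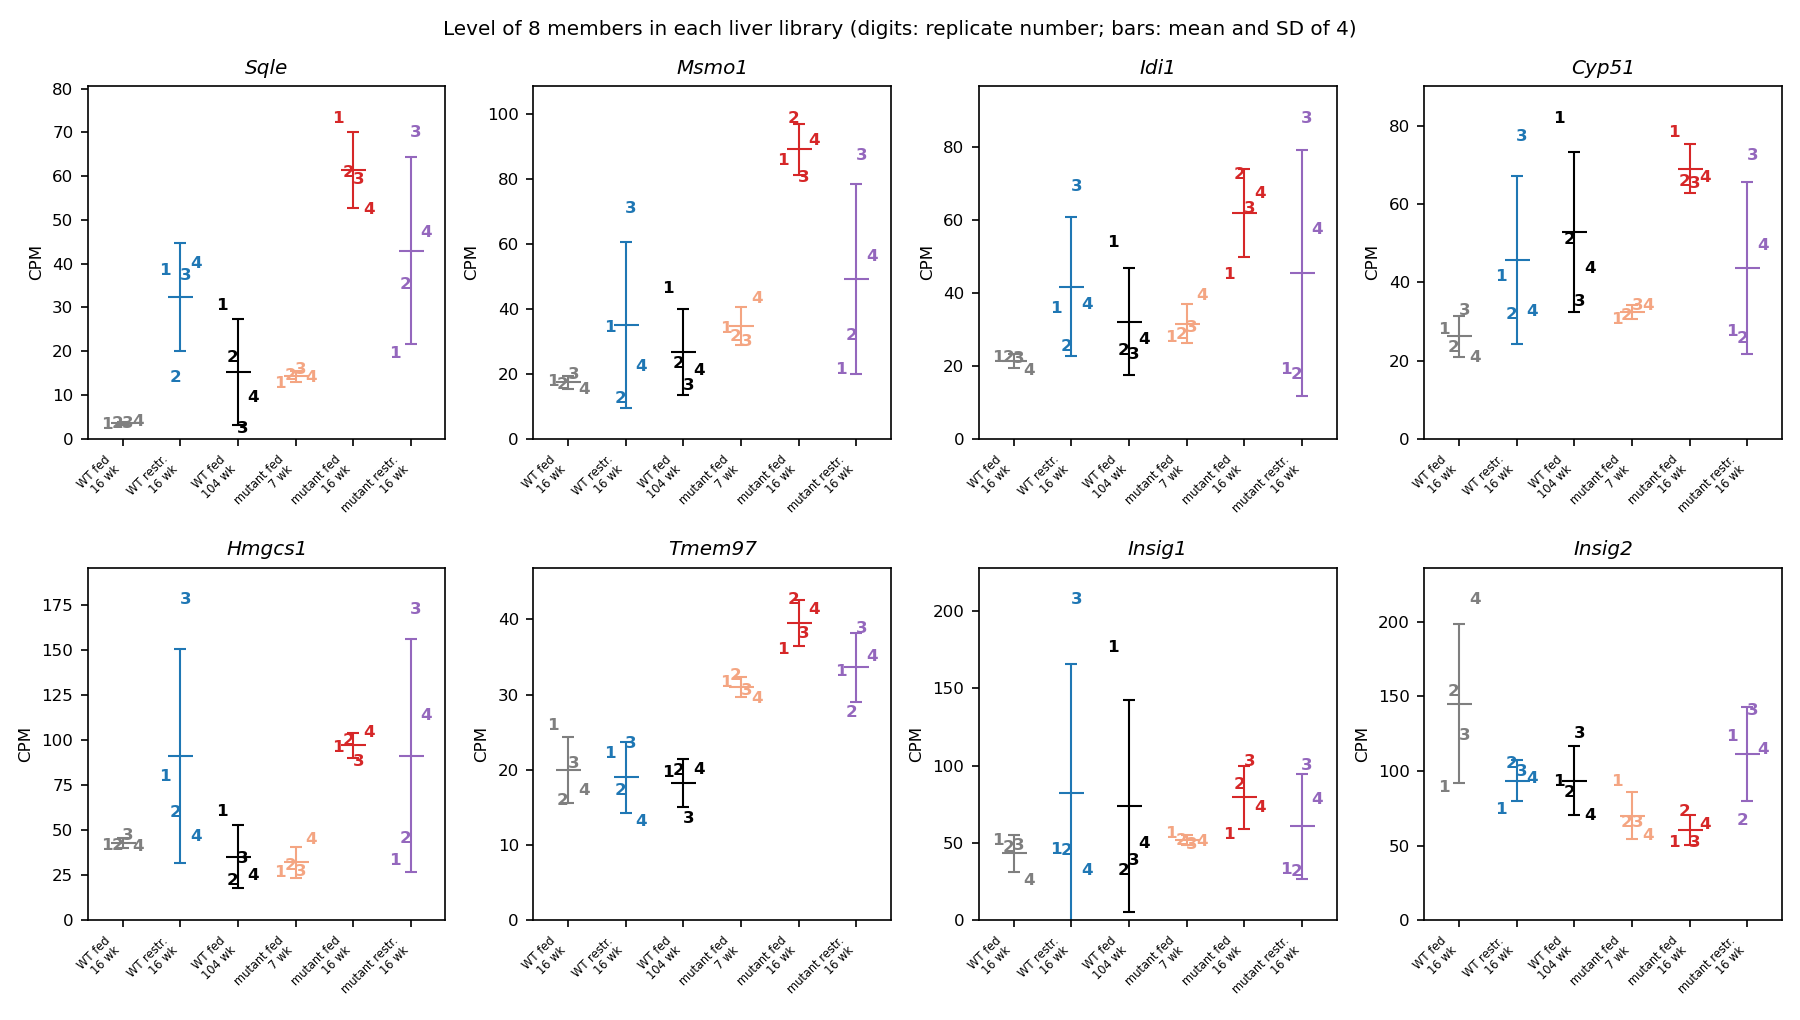
Level of 8 members in CPM (linear axis from 0) in each of the 24 liver libraries, by group. Digits give the replicate number, which the main fit does not use to pair libraries, and bars the mean and SD of 4 libraries. The Sqle values of the freely fed mutant at 16 weeks (52.4 to 73.3 CPM) lie far above those of the freely fed wild type (3.22 to 3.98 CPM), and library 3 of each restricted group and library 1 of the 104-week group lie high in most panels. The lower bar of Insig1 in the restricted wild type, whose SD is above its mean, is cut off at 0.

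The remaining regulators showed no call in the freely fed comparison. Srebf2 itself stood at 67.7 ± 4.67 against 46.5 ± 5.12 CPM (edgeR log2 fold change 0.54 ± 0.20, adjusted p = 0.0789) and Insig1 at 79.7 ± 20.3 against 43.3 ± 11.8 CPM (0.88 ± 0.57, adjusted p = 0.37), in both cases with every mutant library above every wild-type one. Scap was slightly the other way, with a log2 fold change of -0.25 ± 0.14 (edgeR adjusted p = 0.296).

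Of the 8 enzymes between acetyl-CoA and isoprenoids, 2 were called higher. Idi1, which makes the building block of isoprenoid chains, stood at 61.8 ± 12.0 against 21.3 ± 1.79 CPM (edgeR log2 fold change 1.54 ± 0.41, adjusted p = 0.019), and mevalonate kinase (Mvk) at 16.4 ± 2.66 against 6.89 ± 1.05 CPM (1.25 ± 0.38, adjusted p = 0.0396). The HMG-CoA synthase gene Hmgcs1 (97.1 ± 6.88 against 42.7 ± 2.78 CPM) and the decarboxylase gene Mvd (25.5 ± 6.52 against 7.14 ± 1.31 CPM) had non-overlapping groups and log2 fold changes of 1.19 ± 0.44 and 1.83 ± 0.65, but missed the threshold (edgeR adjusted p = 0.0969 and 0.0787). The thiolase gene Acat2 (log2 fold change -0.01, 95% interval -0.459 to 0.448) and the geranylgeranyl diphosphate synthase gene Ggps1 (-0.06, interval -0.463 to 0.351) were the nearest to 0 of these 8. Phosphomevalonate kinase (Pmvk) and farnesyl diphosphate synthase (Fdps) had log2 fold changes of 0.41 and 0.51.

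Of the 11 enzymes from squalene synthase onward, 6 were called higher. Beside Sqle and Msmo1 these were Cyp51 (69.1 ± 6.24 against 26.2 ± 5.21 CPM), Fdft1 (84.9 ± 3.46 against 37.1 ± 9.47 CPM), the cyclase gene Lss (36.7 ± 2.97 against 17.6 ± 5.22 CPM) and the sterol ketone reductase gene Hsd17b7 (19.0 ± 2.64 against 10.7 ± 1.98 CPM). Their log2 fold changes were 1.40, 1.19, 1.06 and 0.83, with edgeR adjusted p = 0.00467, 0.0175, 0.0452 and 0.0239. The reductase gene Tm7sf2 narrowly missed the threshold (0.62 ± 0.20, adjusted p = 0.0509), and Dhcr7, the reductase of the last step, had 0.99 ± 0.37 (adjusted p = 0.1). The dehydrogenase gene Nsdhl (0.66), the desaturase gene Sc5d (0.38) and the isomerase gene Ebp (-0.02) were not called either, and the interval of Ebp, from -0.292 to 0.254, was the narrowest of the 26. Of the transport genes, Stard4, which moves cholesterol between membranes (0.29), and Mylip (-0.46) were not called.

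Calls in this comparison varied with the libraries in the fit, while no called member changed direction. With each of the 8 libraries left out in turn, between 4 and 8 members were called higher, 4 without wild-type library 4 and 5 without wild-type library 2. In these fits 434 to 551 of all tested genes were called higher, against 647 in the main one. Sqle, Msmo1, Cyp51, Tmem97 and Insig2 kept their calls in all 8 fits, Mvk in 0 and Lss in 1. With the fit restricted to these 8 libraries, 16 members were called higher, against 8.92% of all tested genes under that rule.

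Markers of other cells differed between the same groups, and their part in the members' changes was not tested. Macrophage markers were higher for 7 of 11 (summed level 175 to 352 CPM in the mutant against 117 to 171 CPM), erythroid markers lower for 4 of 5 tested (357 to 733 against 1258 to 2287 CPM), and no marker of either list was at 0. Hepatocyte markers summed to 71370 to 91790 against 87290 to 106300 CPM, with 2 of 9 lower. Pericentral hepatocyte markers were higher for 3 of 9 (6668 to 8587 against 5756 to 6445 CPM), periportal ones lower for 1 of 8, and B and plasma cell markers higher for 1 of 3 tested. Genes of the fasting response were lower for 2 of 10. By the same edgeR test, no gene of the endothelial, stellate, cholangiocyte and clock lists was called.

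**Figure D2:**
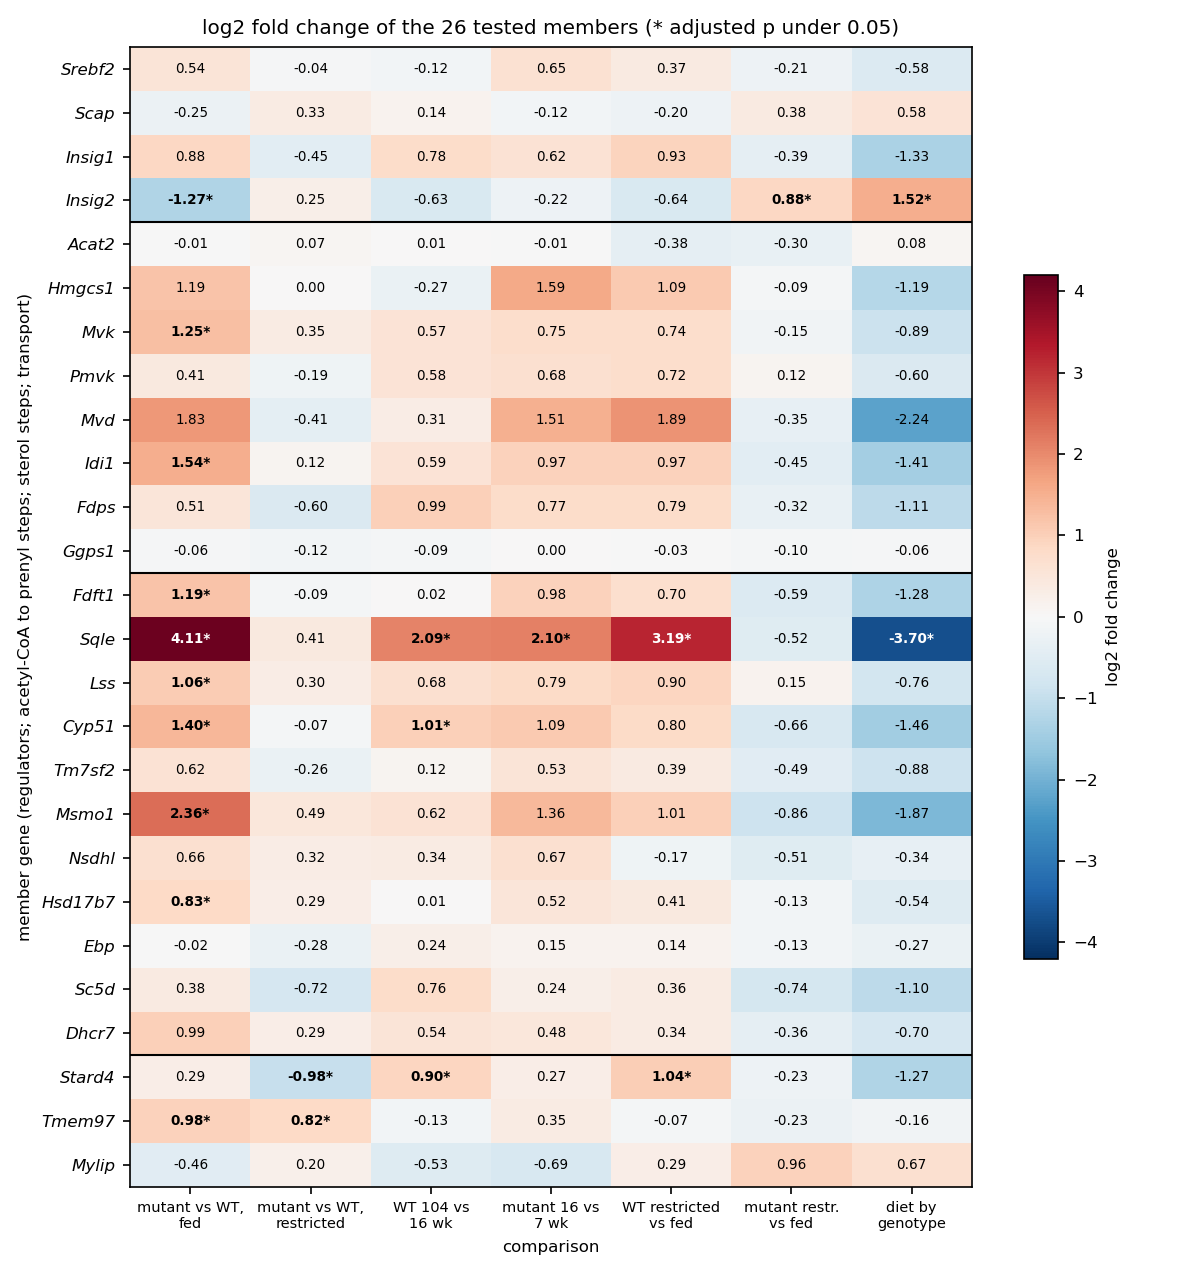
log2 fold change of the 26 tested members (lines separate the 4 roles) in 6 comparisons of groups and in the diet by genotype interaction, with a star at edgeR adjusted p under 0.05. The column of the freely fed mutant against the wild type holds 10 stars, from -1.27 for Insig2 to 4.11 for Sqle, and the interaction column holds negative values for 22 of 26 members.

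Other lists of sterol and lipid genes held at most 2 genes called higher each in the freely fed mutant. In the list of SREBP1 targets and lipogenesis, 0 of 15 genes were higher and 4 lower, with a median log2 fold change of -0.66. Among these, the desaturase gene Scd1 went from 2652 ± 671 to 227 ± 88.1 CPM (edgeR log2 fold change -3.54 ± 0.43, adjusted p = 9.83e-06) and Acacb, a carboxylase that limits fatty acid oxidation, from 154 ± 28.0 to 36.6 ± 3.09 CPM (-2.07 ± 0.27, adjusted p = 1.76e-05). Fasn, fatty acid synthase, ranged from 257 to 512 CPM in the mutant and from 237 to 618 CPM in the wild type. Of the isoprenoid branch genes 1 of 12 was lower (Fnta, edgeR log2 fold change -0.39 ± 0.10, adjusted p = 0.0129).

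Genes that store or export sterols changed in both directions. In the list of sterol storage and movement 2 of 14 were higher and 2 lower, led by the ester hydrolase gene Nceh1 (edgeR log2 fold change -0.93 ± 0.24, adjusted p = 0.012) and Gramd1a, a sterol carrier of membrane contacts (0.55 ± 0.15, adjusted p = 0.0227). Among genes of the sterol receptor LXR and efflux, 2 of 9 were higher and 1 lower, with the biliary sterol exporter gene Abcg5 at 129 ± 23.0 against 75.4 ± 7.54 CPM (0.78 ± 0.20, adjusted p = 0.0123). Of 10 bile acid synthesis genes 1 was called, Cyp7b1, a hydroxylase of the alternative pathway, at 359 ± 94.9 against 115 ± 23.3 CPM (1.64 ± 0.35, adjusted p = 0.00385).

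Between 7 and 16 weeks of free feeding in the mutant, most members had a higher mean at the later age, and under the test over all 24 libraries Sqle was the 1 called. Sqle stood at 12.7, 14.6, 15.9 and 14.0 CPM at 7 weeks and at 73.3, 60.9, 59.3 and 52.4 CPM at 16 weeks. The groups were far apart, with means of 14.3 ± 1.30 and 61.5 ± 8.68 CPM and a log2 fold change of 2.10 ± 0.48 (edgeR adjusted p = 0.0439). It was the 1 member called higher of 26, with 0 lower, against 0.355% of all tested genes higher and 0.331% lower. The members' median log2 fold change was 0.63, against 0.004 over all tested genes, and 22 of 26 were above 0.

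Several enzymes had higher values at 16 weeks without reaching the threshold. Their 7-week and 16-week groups did not overlap, but how often this held over all tested genes was not counted. Hmgcs1 stood at 32.3 ± 8.54 and 97.1 ± 6.88 CPM (edgeR log2 fold change 1.59 ± 0.45, adjusted p = 0.129), Msmo1 at 34.8 ± 5.88 and 89.2 ± 7.90 CPM (1.36 ± 0.42, adjusted p = 0.176), and Cyp51 at 32.5 ± 1.82 and 69.1 ± 6.24 CPM (1.09 ± 0.31, adjusted p = 0.124). Srebf2 itself stood at 43.3 ± 4.96 and 67.7 ± 4.67 CPM (0.65 ± 0.20, adjusted p = 0.15). These 4 genes varied more within the restricted and 104-week groups, which enter the same estimate of spread (for Hmgcs1, SD 17.3 to 64.6 CPM). With the fit restricted to the 8 mutant libraries, 17 members were called higher, against 2.28% of all tested genes under that rule. The call of Sqle was lost without each of the 8 libraries in turn (adjusted p up to 0.151), and no member was then called. In these fits 11 to 44 of all tested genes were called higher, against 45 in the main one.

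At 7 weeks the mutant's Sqle level (12.7 to 15.9 CPM) was already above that of the wild type at 16 weeks (3.22 to 3.98 CPM), but no wild type of 7 weeks was analysed here and this pair of groups was not tested. Among the other lists, 0 of 10 bile acid synthesis, 0 of 9 LXR and efflux, 0 of 14 sterol storage, 0 of 8 SREBP processing and 0 of 12 isoprenoid branch genes were called between 7 and 16 weeks. Scd1 was the 1 of 15 lipogenic genes called, and it was lower at 16 weeks (edgeR log2 fold change -1.73 ± 0.40, adjusted p = 0.0448).

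Cell markers also differed between the mutant's ages, and their part in the members' values was not tested. Cholangiocyte markers summed to 36.8 to 39.2 CPM at 7 weeks and to 21.2 to 29.9 CPM at 16 weeks, with no overlap and no gene called. All 8 endothelial markers had a log2 fold change below 0 (median -0.63) without a call. The 8 periportal markers were below 0 too (median -0.54), and Hal, a histidine-degrading enzyme gene, was called (edgeR log2 fold change -0.76 ± 0.18, adjusted p = 0.046). Of 9 pericentral markers 1 was lower, Cyp1a2 (-0.98 ± 0.23, adjusted p = 0.0404). The 10 fasting response genes were all below 0 (median -0.62), none of them called.

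Natural ageing was compared in wild-type liver of 104 against 16 weeks. Sqle, Cyp51 and the sterol carrier gene Stard4 were called higher and 0 members lower, at log2 fold changes of 2.09, 1.01 and 0.90, and none of the 3 calls was kept without old library 1. Of all tested genes 5.13% were called higher and 5.00% lower. The members' median was 0.33, against 0.02 over all tested genes, with 20 of 26 above 0.

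Sqle stood at 30.5, 18.7, 2.36 and 9.46 CPM at 104 weeks and at 3.22, 3.46, 3.59 and 3.98 CPM at 16 weeks (edgeR log2 fold change 2.09 ± 0.52, adjusted p = 0.0129). Library 1 was highest and library 3 lay below the young group, so the groups overlapped. Stard4 stood at 40.7, 12.5, 24.2 and 27.2 CPM against 10.8, 14.6, 18.5 and 12.3 CPM (0.90 ± 0.27, adjusted p = 0.033), again with overlap. Cyp51 stood at 82.0, 50.9, 35.0 and 43.7 CPM against 28.0, 23.4, 32.7 and 20.9 CPM (1.01 ± 0.31, adjusted p = 0.0389), with every old library above every young one.

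Old library 1 held the highest Insig1 (177 CPM, the other 3 at 32.4 to 49.4 CPM), Sc5d (287 CPM, the others at 103 to 145 CPM) and Fasn (2338 CPM, the others at 441 to 729 CPM). Without it, 0 members were called, the median was 0.053 and Sqle had a log2 fold change of 1.499 (edgeR adjusted p = 0.0696). Of all tested genes, 420 were then called higher and 446 lower, against 651 and 635 with it. Without young library 1, 2 or 4, Sqle was the 1 member called higher, and Cyp51 and Stard4 kept their calls in 2 of 8 such fits each. Insig2 was called lower without old library 3 or young library 1. Clock genes differed between the same groups, with 3 of 15 higher and 3 lower. The clock repressor gene Nr1d1 stood at 45.3 to 63.1 CPM at 104 weeks and at 2.33 to 6.45 CPM at 16 weeks, and the clock activator gene Arntl at 1.16 to 2.56 and 10.2 to 19.2 CPM. Their part in the members' values was not tested. Macrophage markers were higher for 4 of 11 (165 to 318 against 117 to 171 CPM, none at 0), B and plasma cell markers for 3 of 3 tested (43.2 to 51.4 against 4.67 to 11.0 CPM), and the part of both was not tested. Endothelial and stellate markers were lower for 1 of 8 each, hepatocyte and pericentral markers higher for 1 of 9 each, and fasting response genes lower for 4 of 10.

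Among genes of bile acid synthesis, 1 of 10 was higher and 2 lower at 104 weeks, the latter being the reductase gene Akr1d1, by -1.17 ± 0.20 on the log2 scale (edgeR adjusted p = 4.86e-04), and the hydroxylase gene Cyp8b1, by -2.57 ± 0.46 (adjusted p = 0.00102). Cyp7a1, the rate-limiting enzyme of bile acid synthesis, was not called. It stood at 3.58, 2.29, 79.3 and 15.4 CPM in the 4 old libraries and at 91.2 to 122 CPM in the young ones. In the list of sterol storage and movement 3 of 14 were higher and 3 lower. Of the LXR and efflux genes 2 of 9 were higher and 1 lower, the former being Abcg8 (0.87 ± 0.23, adjusted p = 0.0175) and Abcg5 (0.70 ± 0.20, adjusted p = 0.0265), which form the biliary sterol exporter. Of the SREBP processing genes 2 of 8 were higher, Rnf145 (0.53 ± 0.14, edgeR adjusted p = 0.0142) and Erlin1 (0.54 ± 0.17, adjusted p = 0.0418), and of the isoprenoid branch genes 1 of 12, Rabggtb (0.51 ± 0.16, adjusted p = 0.0498).

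**Figure D3:**
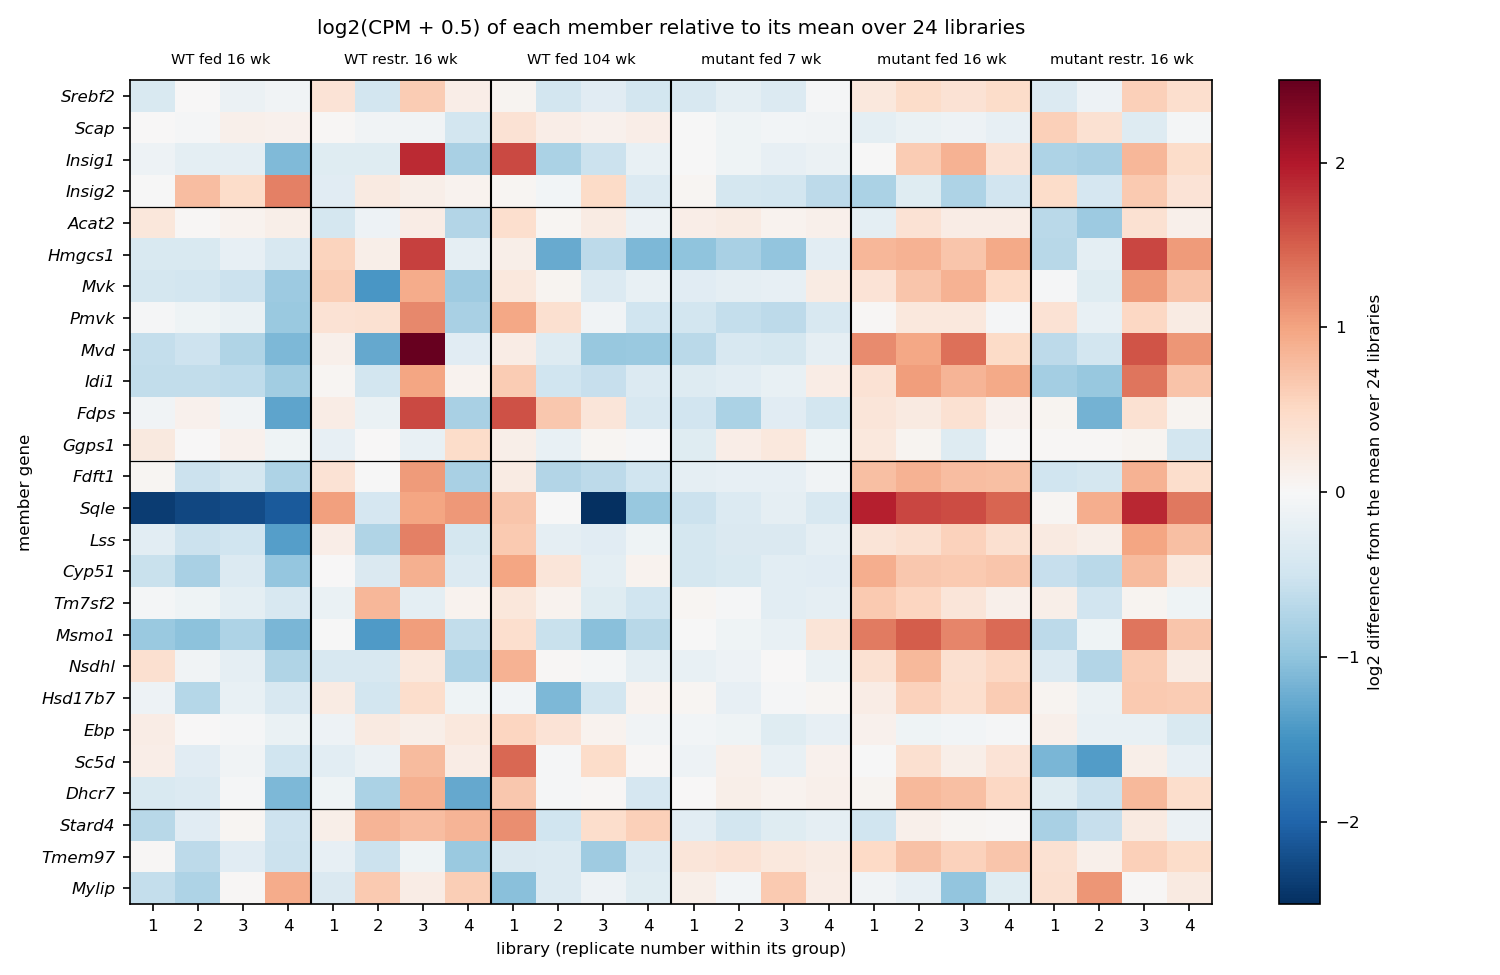
log2(CPM + 0.5) of each tested member minus its mean over the 24 libraries (colour), by library and group. The 4 freely fed mutant libraries of 16 weeks are alike, with a mean log2 level over the members of 5.38 to 5.57, while restricted wild-type libraries range from 4.79 to 5.81, restricted mutant libraries from 4.72 to 5.71 and 104-week libraries from 4.73 to 5.53.

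In the wild type, Sqle and Stard4 were called higher under dietary restriction than under free feeding, and no member was called lower. These 2 calls of 26 compare with 6.30% of all tested genes called higher and 7.30% lower. The median log2 fold change was 0.55, against 0.04 over all tested genes, with 20 of 26 above 0. Sqle stood at 38.4, 13.9, 37.3 and 40.0 CPM on restriction and at 3.22, 3.46, 3.59 and 3.98 CPM on free feeding. The restricted libraries were all above the freely fed ones, library 2 least so, and the log2 fold change was 3.19 ± 0.52 (edgeR adjusted p = 3.74e-04).

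Stard4 stood at 19.9, 32.6, 30.8 and 32.5 CPM on restriction and at 10.8, 14.6, 18.5 and 12.3 CPM on free feeding, with no overlap (edgeR log2 fold change 1.04 ± 0.27, adjusted p = 0.0108). Other members were spread by library 3. Mvd stood at 78.0 CPM there and at 4.73 to 13.3 CPM in the other 3 (log2 fold change 1.89 ± 0.65, adjusted p = 0.0572), and Insig1 at 207 CPM against 32.1 to 45.6 CPM. Lss (0.90 ± 0.33, adjusted p = 0.0726) and Cyp51 (0.80 ± 0.31, adjusted p = 0.0846) had overlapping groups. Insig2 was at 93.5 ± 13.7 against 145 ± 53.3 CPM (-0.64 ± 0.24, adjusted p = 0.0765).

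Without restricted library 2, 8 members were called higher (Cyp51, Lss, Msmo1, Mvd, Mvk, Sqle, Srebf2 and Stard4), and without library 4 there were 4, Fdft1 and Pmvk joining Sqle and Stard4. Of all tested genes, 980 and 448 were called higher in these fits, against 800 in the main one. Without restricted library 1, Mvd joined Sqle and Stard4, and without freely fed library 1 Insig2 was called lower. Without library 3, Sqle and Stard4 were the 2 called, and the members' median was 0.28. Fasn was spread in the same libraries, at 2097, 306, 1967 and 1387 CPM, and Cyp7a1 at 218, 107, 36.3 and 392 CPM. Of the 15 clock genes 4 were higher and 4 lower on restriction, among them Arntl (1.19 ± 0.24, edgeR adjusted p = 0.00143), and their part in the members' values was not tested. Erythroid markers were lower for 3 of 5 tested (368 to 823 against 1258 to 2287 CPM summed), likewise not tested. Hepatocyte markers were higher for 2 of 9, with summed levels that did not overlap (112800 to 151100 against 87290 to 106300 CPM). Stellate markers were higher for 1 and lower for 2 of 8, periportal markers lower for 2 of 8, and pericentral markers higher for 1 and lower for 1 of 9. Macrophage markers were higher for 1 of 11 (92.1 to 161 against 117 to 171 CPM), cholangiocyte markers higher for 1 of 5 tested, B and plasma cell markers lower for 1 of 3 tested, and fasting response genes lower for 2 of 10.

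Beyond the members, the ubiquitin ligase gene Rnf145 was the 1 of 8 SREBP processing genes higher on restriction of the wild type (edgeR log2 fold change 0.70 ± 0.14, adjusted p = 0.00132). Abcg5 (-0.80 ± 0.20, adjusted p = 0.00941) and Abcg8 (-0.73 ± 0.23, adjusted p = 0.0376) were the 2 of 9 LXR and efflux genes lower. In bile acid synthesis Cyp7b1 was the 1 of 10 called, and it was lower (-2.43 ± 0.37, adjusted p = 1.34e-04). Of the 15 lipogenic genes 0 were higher and 3 lower. Of the 14 genes of sterol storage and movement 2 were higher and 1 lower, with the lipoprotein receptor gene Scarb1 at 0.44 ± 0.12 (edgeR adjusted p = 0.0128). Of the 12 isoprenoid branch genes 1 was higher and 1 lower.

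In the mutant, restriction changed 1 member past the threshold, Insig2, which was higher, against 4.91% of all tested genes higher and 6.33% lower. Insig2 stood at 123, 67.2, 141 and 114 CPM on restriction and at 51.8, 72.9, 52.4 and 64.4 CPM on free feeding. Only restricted library 2 lay within the freely fed range, and the log2 fold change was 0.88 ± 0.24 (edgeR adjusted p = 0.0166). The call was lost without freely fed library 1 or 3 and without restricted library 3 (edgeR adjusted p up to 0.0588). The members' median was -0.27, against 0.003 over all tested genes, and 5 of 26 were above 0.

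Restricted mutant libraries fell into a high and a low range for the enzymes given next. Msmo1 stood at 21.5, 31.9, 87.4 and 56.1 CPM, Idi1 at 19.0, 17.6, 87.8 and 57.3 CPM and Hmgcs1 at 33.3, 45.6, 172 and 114 CPM. Libraries 3 and 4 were the high ones, and library 2 was the lowest of its group for 15 of the 26 members. Fasn was also higher in libraries 3 and 4, at 307, 268, 1025 and 1450 CPM, and Cyp7a1 was lower in them, at 36.3, 95.9, 19.0 and 26.0 CPM. With library 3 left out, Cyp51 and Sc5d were called lower on restriction, Scap was called higher and the median was -0.53. Of all tested genes, 620 were then called higher and 794 lower, against 623 and 803 with it.

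Sqle on restriction of the mutant stood at 19.4, 35.3, 70.0 and 47.2 CPM, overlapping the freely fed range of 52.4 to 73.3 CPM (edgeR log2 fold change -0.52, adjusted p = 0.531). Mylip was not called, although every restricted library was above every freely fed one (0.96 ± 0.37, adjusted p = 0.0926). Among the other lists, Erlin1 (-0.63 ± 0.17, adjusted p = 0.0157) was the 1 SREBP processing gene lower and Rnf145 (0.49 ± 0.14, adjusted p = 0.0195) the 1 higher. Of bile acid genes 1 of 10 was higher and 2 lower, led by Cyp7b1, which went from 359 ± 94.9 to 38.7 ± 21.0 CPM (-3.21 ± 0.37, adjusted p = 3.76e-06). Of the 15 lipogenic genes 2 were higher and 1 lower, led by the desaturase genes Fads2 (-0.92 ± 0.19, edgeR adjusted p = 0.00136) and Scd1 (1.70 ± 0.40, adjusted p = 0.00656). The LXR and efflux genes Abcg5 (0.64 ± 0.20, adjusted p = 0.0365) and Smpdl3a (0.42 ± 0.13, adjusted p = 0.0428) were the 2 of 9 higher. Of the sterol storage genes 1 of 14 was higher and 1 lower, and of the isoprenoid branch genes 1 of 12 was lower.

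Cell markers differed on restriction of the mutant as well, and their part in the members' values was not tested. Periportal markers were higher for 4 and lower for 2 of 8 (8221 to 11150 against 5940 to 7466 CPM summed), and endothelial markers higher for 2 of 8 (159.9 to 214 against 125 to 157 CPM), both sums without overlap. Hepatocyte and pericentral markers were each higher for 1 and lower for 2 of 9. Macrophage markers were higher for 1 of 11, stellate markers higher for 1 of 8 and erythroid markers lower for 1 of 5 tested. Clock genes were higher for 1 and lower for 1 of 15, and fasting response genes lower for 2 of 10. The mitochondrial share was 13.5 to 15.0% of counts on restriction and 9.37 to 10.9% on free feeding.

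Mutant and wild type were also compared when both were restricted, and here the enzymes of synthesis showed no call in either direction. Tmem97 was the 1 member called higher and Stard4 the 1 called lower, against 9.58% of all tested genes higher and 8.70% lower. The members' median was 0.04, against -0.03 over all tested genes, with 14 of 26 above 0. Tmem97 stood at 33.0, 27.7, 38.8 and 35.0 CPM in the mutant and at 22.1, 17.3, 23.4 and 13.1 CPM in the wild type. The groups did not overlap, and the log2 fold change of 0.82 ± 0.17 (edgeR adjusted p = 0.00137) lay near the 0.98 of the freely fed comparison.

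Stard4 stood at 9.98, 11.7, 20.9 and 16.1 CPM in the restricted mutant and at 19.9, 32.6, 30.8 and 32.5 CPM in the restricted wild type. Mutant library 3 reached above wild-type library 1, and the log2 fold change was -0.98 ± 0.27 (edgeR adjusted p = 0.0119). Sqle had a log2 fold change of 0.41 between the restricted genotypes, Msmo1 0.49 ± 0.42 (adjusted p = 0.46) and Sc5d -0.72 ± 0.32 (adjusted p = 0.126), all with overlapping groups. With both libraries numbered 3 left out, an alternative chosen after seeing the data, Scap and Tmem97 were called higher and Stard4 lower. Without mutant library 3 alone, Scap and Tmem97 were called higher and Sc5d and Stard4 lower, without mutant library 1 Ebp joined Stard4, and without wild-type library 3 Lss joined Tmem97. The members' median ranged from -0.192 without mutant library 3 to 0.323 without wild-type library 3.

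Macrophage markers were higher for all 11 of 11 between the restricted genotypes (273 to 382 against 92.1 to 161 CPM summed, none at 0). Hepatocyte markers were higher for 1 and lower for 4 of 9 (86990 to 112100 against 112800 to 151100 CPM, without overlap), and clock genes higher for 1 and lower for 5 of 15. Periportal markers were higher for 3 and lower for 1 of 8, pericentral markers higher for 4 and lower for 1 of 9, and fasting response genes higher for 1 and lower for 3 of 10. The part of these lists in the members' values was not tested. The exporter genes Abcg5 (201 ± 39.9 against 43.3 ± 17.8 CPM, edgeR log2 fold change 2.22 ± 0.21, adjusted p = 1.05e-07) and Abcg8 (1.65 ± 0.24, adjusted p = 3.15e-05) led 3 of 9 LXR and efflux genes that were higher, with 1 lower. Of the 14 sterol storage genes 2 were higher and 1 lower, the first being Soat1, which esterifies cholesterol (1.34 ± 0.38, adjusted p = 0.0143). Of the 15 lipogenic genes 0 were higher and 3 lower. Of the isoprenoid branch genes 1 of 12 was higher, Pdss1 (0.85 ± 0.21, edgeR adjusted p = 0.00587). The bile acid genes Acox2 (1.03 ± 0.20, adjusted p = 0.000732) and Baat (-0.61 ± 0.15, adjusted p = 0.00631) were the 2 of 10 called.

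The difference between the genotypes' responses to restriction was tested as an interaction over the 16-week groups. It was called for Sqle and Insig2, in opposite directions, against 0.906% of all tested genes above 0 and 0.591% below. Sqle went from 3.56 ± 0.315 to 32.4 ± 12.4 CPM in the wild type and from 61.5 ± 8.68 to 43.0 ± 21.3 CPM in the mutant (interaction -3.70 ± 0.69 on the log2 scale, edgeR adjusted p = 0.0065). Insig2 went from 145 ± 53.3 to 93.5 ± 13.7 CPM in the wild type and from 60.4 ± 10.2 to 111 ± 31.4 CPM in the mutant (1.52 ± 0.34, adjusted p = 0.0202). The Insig2 mean was thus lower in the mutant under free feeding. Under restriction its mutant mean was the higher one, but the groups overlapped and the difference was not called (edgeR log2 fold change 0.25 ± 0.24, adjusted p = 0.5).

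**Figure D4:**
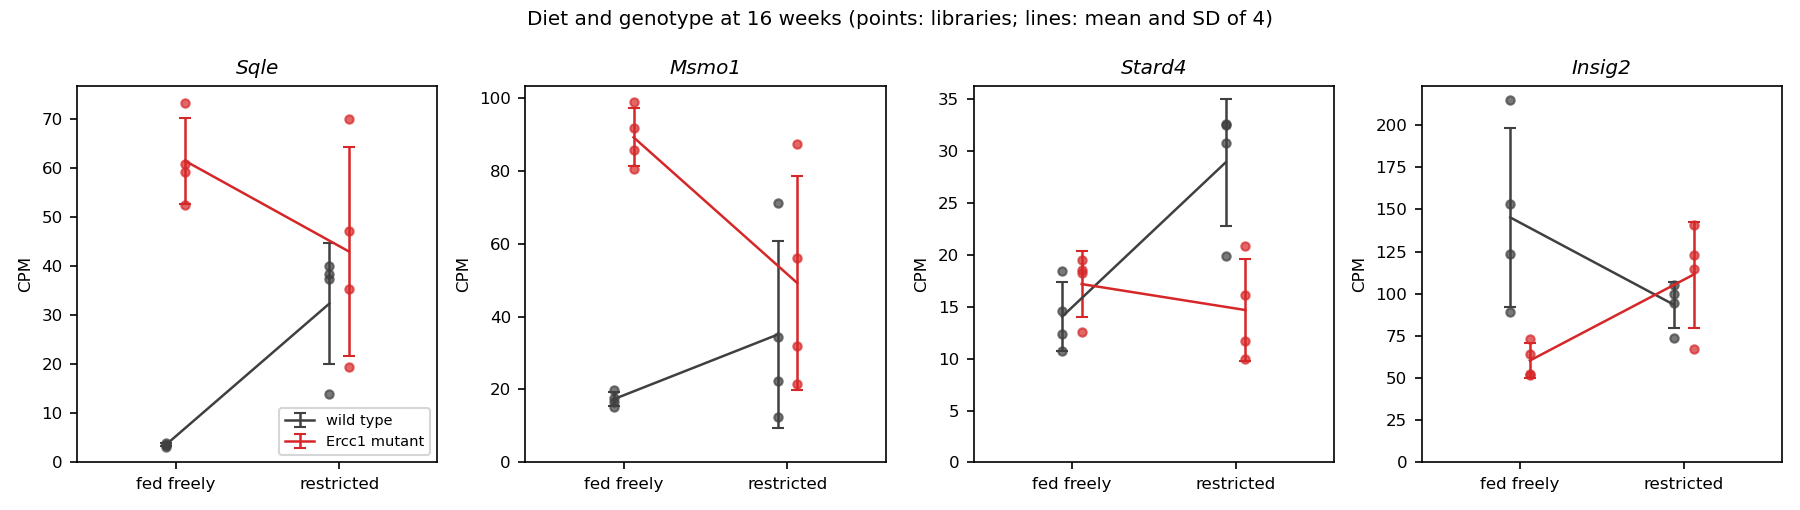
Level in CPM (linear axis from 0) of 4 members in freely fed and restricted libraries of 16 weeks; points are libraries, lines join group means, bars are the SD of 4 libraries. Sqle goes from 3.56 to 32.4 CPM in the wild type and from 61.5 to 43.0 CPM in the mutant. The Insig2 lines cross, while its restricted groups overlap and were not called different.

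The members' median interaction was -0.82, against -0.035 over all tested genes, and 4 of 26 were above 0. Not called were Stard4 (-1.27 ± 0.38, edgeR adjusted p = 0.0975), Cyp51 (-1.46 ± 0.43, adjusted p = 0.0991), Tm7sf2 (-0.88 ± 0.28, adjusted p = 0.134), Msmo1 (-1.87 ± 0.60, adjusted p = 0.141) and Fdft1 (-1.28 ± 0.44, adjusted p = 0.172). The Sqle call held without each of the 16 libraries in turn. That of Insig2 was lost without freely fed mutant library 1 or 3, without freely fed wild-type library 4, and without both restricted libraries numbered 3 (1.44, adjusted p = 0.065). Without restricted mutant library 3, Cyp51 and Stard4 were also called below 0 and Scap above, without restricted wild-type library 2 Msmo1 was called below 0, and without restricted wild-type library 3 the median was -0.371. Abcg5 (1.44 ± 0.28, adjusted p = 0.00675), Abcg8 (1.41 ± 0.33, adjusted p = 0.0291) and Scd1 (3.18 ± 0.56, adjusted p = 0.00389) were the called genes of the LXR and efflux and lipogenic lists. Among bile acid and zonation genes, Acox2 (1.32 ± 0.28, adjusted p = 0.0128), the pericentral marker Oat (1.07 ± 0.27, adjusted p = 0.0468) and the periportal markers Hal (1.05 ± 0.25, adjusted p = 0.0353) and Arg1 (0.76 ± 0.19, adjusted p = 0.037) were called above 0. The 4 comparisons at 16 weeks share groups of libraries, so their values are given side by side and not as repeats of each other.

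Across the 6 groups the members differed in how far their means ranged. Sqle had the widest range, its highest group mean (freely fed mutant, 16 weeks) being 17.3 times its lowest (freely fed wild type, 16 weeks), followed by Msmo1 at 5.14 times between the same groups and Mvd at 3.71 times. Ggps1 (1.11 times), Acat2 and Scap (both 1.31 times) and Ebp (1.33 times) ranged least. The freely fed wild type of 16 weeks had the lowest mean for 13 of the 26 tested members, and the freely fed mutant of that age the highest for 13. These are descriptions of group means, without a test.

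Some levels rest on reads that genes may share, since nothing used here gives the strand setting or the handling of multi-mapped reads. Fdps overlaps the model Gm43738 by 7512 bases on the same strand, and its level is therefore uncertain. On opposite strands Fdft1 overlaps Ctsb by 774 bases, Ggps1 overlaps Arid4b by 257 and Cyp51 overlaps Akap9 by 166, while Tm7sf2 overlaps Vps51 by 532 bases on the same strand. Mvd, Lss, Hmgcs1, Scap (3383 bases), Insig2 (3058) and Idi1 (323) have overlapping models on the opposite strand. Srebf2 overlaps a model by 2110 bases on the same strand, and Acat2 has a near-identical neighbour, Acat3.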

How the data were processed

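Mouse liver RNA was sequenced in 24 libraries, and the authors deposited raw counts per gene for 22429 genes. Per the submitters' processing notes, Trimmomatic 0.39, STAR 2.7.0f, featureCounts of Subread 1.6.4 and GRCm38.p6 were used, while the annotation release, the use of strand and the handling of multi-mapped reads were each not given in the sources used here. Positions are from the GRCm38 annotation in GENCODE M21. Every sample column was mapped by its label (columns left unused: 0).

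Counts were fitted with edgeR 4.0.16 in R 4.3.3 (low-count filter filterByExpr, TMM scaling, robust quasi-likelihood F test, two-sided), in 1 fit over all 6 groups with 18 residual degrees of freedom, after the script was tested on simulated data. Of the genes, 12690 passed the filter, p-values were adjusted over all of them by Benjamini-Hochberg, and a gene was called at an adjusted p under 0.05. A level is a CPM value that uses the TMM-scaled library size, given as mean ± SD. The SE of a log2 fold change is its absolute value divided by the square root of the test's F. Where given, a 95% interval uses this SE and a t distribution with 18 degrees of freedom. The test moderates its degrees of freedom, so an interval can differ slightly from the p-value. The mean log2 level of the members per library used log2(CPM + 0.5). CPM are not divided by transcript length and are not compared between genes. Where groups are said not to overlap, this describes the named gene, and its share over all tested genes was not counted. The labels do not say that libraries of a group came from separate animals, and p-values then cover only the spread between these samples, which may be technical. No pair of libraries in a group agreed within sampling noise (the smallest chi-square was 8.6 per degree of freedom).

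The members and the other gene lists were chosen with earlier results of these data known. All 27 members are named. Values of every library are given for up to 4 called members with the lowest p in a comparison, and other members by value, range or count. From each other list up to 2 called genes with the lowest p are named. The SREBP processing list is not reported here for mutant against wild type on either diet. Fasn, Cyp7a1 and Nr1d1, the restricted mutant's Msmo1, Idi1 and Hmgcs1 by library, and members called under alternatives were chosen after their values were seen. Alternatives were DESeq2 1.42.0, DESeq2 size factors, total counts without scaling, no filter, a replicate block, fits of the compared groups alone, each library left out, and, chosen after seeing the data, both restricted libraries numbered 3 left out.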

Additional observations from a re-analysis of the deposited data

Results flagged for a closer look

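Each member's 4 libraries in each group were screened for a highest or lowest library far from the other 3 (Dixon's test at 95%, in CPM). Of 162 member and group combinations, 19 stood out. The test's nominal rate of about 1 in 20 is for independent, normally distributed values. Members read in the same libraries are not independent, so this count cannot be set against that rate. Library 1 of the 104-week wild type was high for Insig1 (177, the next at 49.4), Idi1 (53.9, the next at 27.1) and Lss (42.9, the next at 25.3). Library 3 of that group was low for Tmem97 (13.5, the next at 19.7).

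Among restricted wild-type libraries, library 3 was high for Insig1 (207, the next at 45.6), Mvd (78.0, the next at 13.3) and Npc1l1 (0.128, the next at 0). Library 2 was low for Sqle (13.9, the next at 37.3) and library 1 for Stard4 (19.9, the next at 30.8). Among restricted mutant libraries, library 4 was low for Ggps1 (3.76, the next at 5.42) and high for Npc1l1 (0.130, the next at 0.0584).

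Among freely fed wild-type libraries of 16 weeks, library 4 was low for Insig1 (25.8, the next at 47.4) and Idi1 (18.6, the next at 22.0), library 3 high for Hmgcs1 (46.8, the next at 41.7) and library 2 high for Npc1l1 (0.0665, the next at 0). Among freely fed mutant libraries of 16 weeks, library 2 was high for Fdft1 (90.0, the next at 83.8) and library 1 for Cyp51 (78.4, the next at 66.9). At 7 weeks, library 4 was high for Mvk (12.2, the next at 9.11) and Fdft1 (45.8, the next at 42.3). The Npc1l1 values are of a gene with too few counts to test.

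The response to restriction differed between the genotypes, by edgeR's test of the interaction, for Sqle (-3.703 on the log2 scale, adjusted p = 0.0065) and Insig2 (1.518, adjusted p = 0.0202).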

How the results depend on the processing

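No called member changed direction under any alternative run. Of 184 values of called members with a library left out, 134 kept their call and 50 lost it, and of 130 under the other settings 120 kept it. Counts of members called higher moved as follows. With the compared groups fitted alone they were 16 (from 9) for the freely fed mutant against wild type and 1 (from 3) for 104 against 16 weeks. They were then 17 (from 1) for the mutant at 16 against 7 weeks and 3 (from 2) for restriction of the wild type. Without scaling they were 10 for the freely fed genotypes, 2 (from 1) for the restricted genotypes and 1 for 104 weeks. They were then 3 for restriction of the wild type and 2 (from 1) for that of the mutant. With DESeq2 they were 12 for the freely fed genotypes, 3 for the mutant at 16 against 7 weeks and 4 for restriction of the wild type. By DESeq2, 3 members were called with an interaction below 0. With no filter, 7 were called for the freely fed genotypes, 2 for 104 weeks and 0 for the mutant at 16 against 7 weeks. Without both restricted libraries numbered 3, there were 2 higher for the restricted genotypes and 2 below 0 for the interaction.

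Deviations of same-numbered libraries of different groups had a median correlation of 0.025, with 16 of 60 pairs over 0.1. For different-numbered libraries the median was -0.007, with 34 of 180 pairs over 0.1. Of 24 libraries, 8 matched best with their own number. With the number as a replicate block, 0 members were called for the mutant at 16 against 7 weeks and 10 (from 9) were higher in the freely fed mutant against wild type. All other member counts were the same with this block.

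With each library left out in turn, members called higher and lower numbered 4 to 8 and 1 for freely fed mutant against wild type, 1 to 2 and 1 to 2 for the restricted genotypes, and 0 to 2 and 0 to 1 for 104 weeks. They numbered 0 and 0 for the mutant at 16 against 7 weeks, 2 to 8 and 0 to 1 for restriction of the wild type, 0 to 1 and 0 to 2 for restriction of the mutant, and 0 to 2 and 1 to 3 for the interaction. Calls over all tested genes moved as well. They numbered 871 to 1082 (from 1262) for the freely fed genotypes, 1804 to 2256 (from 2320) for the restricted ones and 792 to 1533 (from 1286) for 104 weeks. For the mutant's ages they numbered 29 to 76 (from 87), and for the interaction 109 to 225 (from 190). For restriction they numbered 1051 to 2009 (from 1726) in the wild type and 1053 to 1414 (from 1426) in the mutant. The cause of these shifts was not tested.

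Over all tested genes, fitting the compared groups alone gave 2202 calls (from 1262) for the freely fed genotypes, 877 (from 2320) for the restricted genotypes, 568 (from 87) for the mutant at 16 against 7 weeks, 986 (from 1726) for restriction of the wild type and 126 (from 190) for the interaction. For 104 against 16 weeks it gave 1087 (from 1286). DESeq2 gave 1570 for the freely fed genotypes, 189 for the mutant's ages, 2065 for restriction of the wild type and 370 for the interaction. With no filter there were 1112 for the freely fed genotypes, 1098 for 104 weeks and 68 for the mutant's ages. Leaving out both restricted libraries numbered 3 gave 954 higher (from 1216) for the restricted genotypes and 52 below 0 (from 75) for the interaction. Without scaling, the share of calls that were higher went from 51.3 to 68.4% for the freely fed genotypes, 52.4 to 73.1% for the restricted ones, 51.7 to 74.2% for the mutant's ages, and 46.3 to 62.0% and 43.7 to 67.0% for restriction of the wild type and the mutant. The median log2 fold change of all genes then went from -0.03 to 0.094 for the restricted genotypes and from 0.003 to 0.118 for restriction of the mutant. Depth limits Npc1l1, which was not tested.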

Other observations

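As a description of the members together, the mean log2 level of the 26 tested members per library ran from 4.45 to 4.76 in freely fed wild-type libraries of 16 weeks and from 4.83 to 4.93 in freely fed mutant libraries of 7 weeks. It ran from 5.38 to 5.57 in freely fed mutant libraries of 16 weeks. These 3 freely fed groups were tight (SD 0.143, 0.05 and 0.082), while the SD was 0.479 in restricted wild-type, 0.47 in restricted mutant and 0.387 in 104-week libraries.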
